A study of Mus musculus with 2 samples.

Results

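The sine oculis homeobox genes Six2, Six4 and Six5, the eyes absent genes Eya1, Eya2, Eya3 and Eya4, and Pitx3 encode regulators known to act upstream of the myogenic factors, and these 8 genes were described here in mouse muscle stem cells. They were chosen by name as members of this network, with earlier results of these data known. The deposited transcript count table holds 24532 gene IDs, and a gene's value was the sum of its transcript rows. RNA was sequenced from muscle stem cells (MuSCs, the Pax7-expressing stem cells of skeletal muscle) of male C57BL/6 mice, with 1 double-knockout (dKO) library and 1 wild-type (WT) library. The dKO genotype holds 3 parts: Pax7-CreER, in which Pax7 drives a Cre recombinase that tamoxifen activates; Esr2-/-, which removes estrogen receptor beta; and an allele that Cre deletes, whose gene is left out here. Per the labels' protocols, which stand on both samples, mice aged 3 months received oral tamoxifen (20 mg/mL) for 5 days. The labels do not say whether the WT mice carried Pax7-CreER or how many animals made up a library. Both samples carry the title mark 6M, which the labels do not explain. Cells of digested limb muscle were sorted for Vcam1 on their surface and against Sca1, CD31 and CD45, and RNA was taken from them without culture.

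Sine oculis proteins are homeodomain transcription factors that bind DNA at a site known in muscle as MEF3. Eya proteins do not bind DNA themselves. They are recruited by sine oculis proteins as coactivators, and they carry a phosphatase domain. Together with Pax factors these proteins switch on the MyoD family in the embryo, and both families are also known to promote the fast glycolytic fibre type in adult muscle. Pitx3 is a paired-like homeodomain factor, best known for midbrain dopamine neurons and the eye lens, and it is also expressed in developing skeletal muscle.

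The promoters of these genes were searched for the letters of known DNA sites, among them the family's own. RefSeq promoter windows on GRCm38.p6 (the assembly that mm10 names) were given for 6 of the 8 genes, in 8 windows, and the 250 bases upstream of each start were searched on both strands. The MEF3 site was written TCAGGTTTC, the E-box, the site of MyoD family factors, CANNTG, and the Pitx site TAATCC. Of 32851 windows of all genes, 0.387% held the MEF3 letters, 66.2% an E-box and 6.25% the Pitx letters. Among the 8 windows of these genes, 1 window, that of Six4, held the MEF3 letters, 3 held an E-box (those of Eya3, Eya4 and Pitx3), and 0 held the Pitx letters. The Six4 match reads TCAGGTTTC on the strand opposite to the gene. It lies 91 to 99 bases upstream of the start of one Six4 window and 81 to 89 bases downstream of that of the other. The match is inside the RefSeq span of Six4 (73099609 to 73114031), and the stretch shown overlaps an annotated Six4 exon. It is thus not upstream of the whole gene. The stretches are shown 5′ to 3′ on the gene's strand, with the matched letters in capitals, for the MEF3 letters in the gene of a factor that binds them and for the E-boxes of Pitx3 and Eya3, the genes with the highest and the lowest level per length. A match of letters is a description and not evidence of binding.
Six4, chr12:73113326-73113354, minus strand: tggcctggggGAAACCTGAtcggccagat
Pitx3, chr19:46148446-46148530, minus strand: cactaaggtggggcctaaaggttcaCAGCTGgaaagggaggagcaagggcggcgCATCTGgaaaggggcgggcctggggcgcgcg
Eya3, chr4:132638895-132638950, plus strand: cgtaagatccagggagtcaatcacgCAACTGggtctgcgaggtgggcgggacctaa

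The dKO library held 43699831 and the WT library 36636680 reads assigned to transcripts. A gene was called measured where either library had 10 or more counts, which left 14885 genes. Values are CPM, the counts per mega-read of library sizes scaled by the trimmed mean of M values (TMM). The log2 ratio is that of dKO CPM + 1 over WT CPM + 1, and genes at or past 1 or −1 are called 2-fold higher or lower. With 1 library per group there is no replicate check and no test, and each statement compares these 2 libraries. The 95% intervals are exact Poisson intervals for counts and CPM and exact conditional binomial intervals for ratios of CPM, and they cover counting error only. Esr2 had 45 counts in dKO and 71 in WT, which checks nothing about its deletion, since the labels do not give the deleted part. Pax7, the defining factor of these cells, had 12620 counts in dKO and 22335 in WT, a ratio of CPM of 0.565 (0.553 to 0.577). Vcam1, which encodes a surface protein used in the sort, had 42383 in dKO and 23795 in WT, a ratio of 1.78 (1.75 to 1.81). Of 12 muscle stem cell markers all were measured and 0 were 2-fold apart, against 1 lower under library totals, 2 lower with the trend on abundance and length removed and 1 higher when each gene was read from its longest transcript row. All 12 endothelial markers (summed 303 CPM in dKO, 739 CPM in WT) and all 12 immune markers (78.1 CPM in dKO, 258 CPM in WT) were lower in dKO.

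All 8 genes were measured in both libraries at moderate levels, and all 8 were lower in dKO by small amounts. Their log2 ratios ran from −0.65 for Eya3 to −0.18 for Eya4, with a median of −0.31, beside a median of −0.02 over all measured genes. None of the 8 was 2-fold lower, against 4.30% of measured genes, and none was 2-fold higher, against 1.92%. Log2 ratios below 0 were found for 8 of 8 genes, against 52.4% of measured genes. The 95% interval of the ratio lay wholly below 1 for 8 of 8, against 37.8% of measured genes. The width of that interval depends on counts, and this background was not matched to the counts of the 8 genes. The 8 genes were also chosen with earlier results of these data known, so none of these comparisons with all measured genes is a test. Eya3 alone was past 1.5-fold, a line that 13.1% of measured genes passed in that direction. Summed over the 8 genes there were 7881 reads in dKO and 9925 in WT, or 197 CPM in dKO and 248 CPM in WT. For Eya1 and Eya4 the direction rests on how transcript rows are joined, as described with the rows. In sorted cells taken as bulk, fewer cells of a type and less RNA per cell cannot be told apart.

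**Figure D1:**
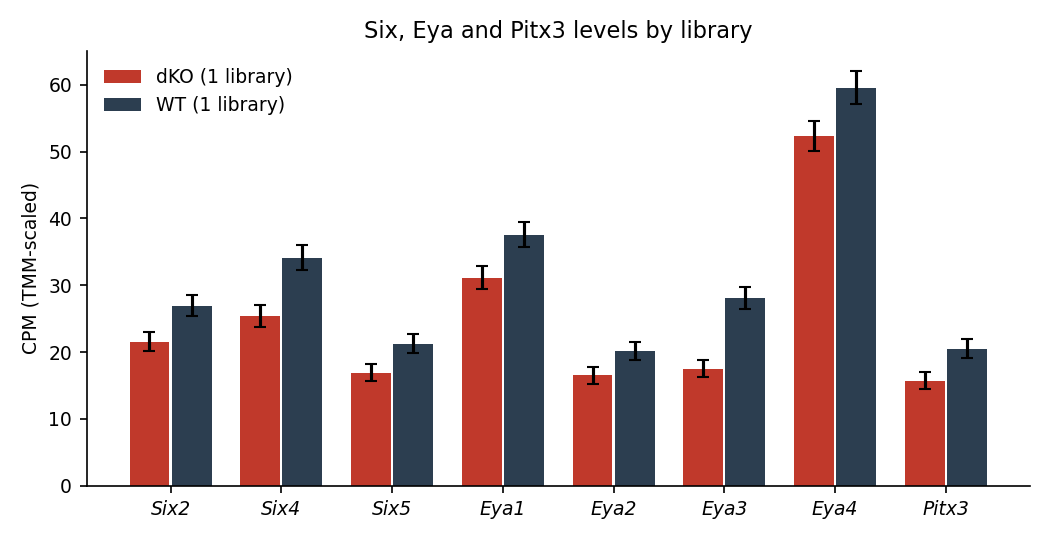
CPM (TMM-scaled) of the 8 genes in the dKO library and the WT library, 1 library each; bars start at 0 and error bars are 95% Poisson intervals for counting error. The dKO bar is lower for each of the 8 genes, from 52.3 against 59.6 CPM for Eya4 to 17.5 against 28.1 CPM for Eya3.

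Of the sine oculis factors, Six4 (Entrez ID 20474, chromosome 12, 73099609 to 73114031; all coordinates of genes are those of RefSeq on GRCm38, and all 8 are protein-coding) had the lowest ratio. Six4, a homeodomain factor expressed in embryonic muscle, had 1015 counts in dKO (954 to 1079) and 1366 in WT (1295 to 1440). That is 25.4 CPM in dKO and 34.1 CPM in WT, 1.35-fold lower (1.24 to 1.46), with a log2 ratio of −0.41. The Six4 gene overlaps Mnat1, which had 855 counts in dKO and 1002 in WT, and with no strand setting stated reads of the shared part cannot be assigned.

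Six2 (Entrez ID 20472, chromosome 17, 85662736 to 85688254), known for holding kidney progenitors in an undifferentiated state, had 861 counts in dKO (804 to 920) and 1077 in WT (1014 to 1143). Its level was 21.5 CPM in dKO and 26.9 CPM in WT, 1.25-fold lower (1.14 to 1.37), with a log2 ratio of −0.31. Six5 (Entrez ID 20475, chromosome 7, 19094544 to 19098549), which lies next to the myotonic dystrophy locus, had 677 counts in dKO (627 to 730) and 848 in WT (792 to 907). It stood at 16.9 CPM in dKO and 21.2 CPM in WT, also 1.25-fold lower (1.13 to 1.39). The count intervals of dKO and WT did not overlap for Six2, Six4 or Six5.

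The make-up of the sine oculis genes was close in both libraries. Six4 took 39.8% of their summed reads in dKO (exact binomial 95% interval 37.9 to 41.7) and 41.5% in WT (39.8 to 43.2). Six2 took 33.7% in dKO (31.9 to 35.6) and 32.7% in WT (31.1 to 34.4), and Six5 took 26.5% in dKO (24.8 to 28.3) and 25.8% in WT (24.3 to 27.3). These intervals overlap for each gene, so a difference in make-up was not detectable at this depth. Each of the 3 genes has 1 transcript row, so the choice of rows does not enter their values.

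Among the Eya coactivators, Eya3 (Entrez ID 14050, chromosome 4, 132639025 to 132724765) differed most of the 8 genes. Eya3, the most broadly expressed family member and a phosphatase linked to the DNA damage response, had 699 counts in dKO (648 to 753) and 1123 in WT (1058 to 1191). Its level was 17.5 CPM in dKO and 28.1 CPM in WT, 1.61-fold lower (1.46 to 1.77), with a log2 ratio of −0.65. Of all measured genes, 10.8% had a log2 ratio at or below that of Eya3.

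Eya2 (Entrez ID 14049, chromosome 2, 165595028 to 165771727), which works with sine oculis factors in myogenic induction, had 661 counts in dKO (612 to 713) and 805 in WT (750 to 863). That is 16.5 CPM in dKO and 20.1 CPM in WT, 1.22-fold lower (1.10 to 1.35). All of its reads lay in 1 of its 3 rows, so no reading of the rows moves its direction, though its longest row, at 0 in both libraries, gives no value.

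Eya1 (Entrez ID 14048, chromosome 1, 14168953 to 14311035), whose human counterpart is mutated in branchio-oto-renal syndrome, had 1246 counts in dKO (1178 to 1317) and 1504 in WT (1429 to 1582). It stood at 31.1 CPM in dKO and 37.6 CPM in WT, 1.21-fold lower (1.12 to 1.30). Eya4 (Entrez ID 14051, chromosome 10, 23102962 to 23350838), whose human counterpart is linked to deafness and heart muscle disease, was the most abundant of the 8 by reads. Eya4 had 2093 counts in dKO (2004 to 2185) and 2383 in WT (2288 to 2481), or 52.3 CPM in dKO and 59.6 CPM in WT, 1.14-fold lower (1.07 to 1.21).

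The make-up of the Eya family was not the same in both libraries. Eya3 took 14.9% of the family's reads in dKO (13.9 to 15.9) and 19.3% in WT (18.3 to 20.4), and Eya4 took 44.5% in dKO (43.1 to 46.0) and 41.0% in WT (39.7 to 42.3). For both genes the intervals did not overlap, while for Eya1 (26.5% in dKO, 25.9% in WT) and Eya2 (14.1% in dKO, 13.8% in WT) they did. Summed, the 4 Eya genes had 117 CPM in dKO and 145 CPM in WT, a ratio of 0.808 (0.777 to 0.840), beside 0.775 (0.736 to 0.817) for Six2, Six4 and Six5 summed.

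The rows of Eya1 and Eya4 differed in their ratios. The Eya1 row of 4342 bases held most reads, 910 in dKO and 878 in WT, a ratio of 1.04 (0.943 to 1.14). The Eya1 row of 4330 bases had 336 in dKO and 367 in WT, and its ratio of 0.915 (0.787 to 1.06) also spans 1. The row of 4214 bases had 0 in dKO and 259 in WT, a ratio of 0 (0 to 0.0143). Set against a floor of 3 counts in the dKO library, the row was 86.4-fold lower, a value that depends on the chosen floor. With that row left out, by a rule on such rows that was chosen after seeing the data, the log2 ratio of Eya1 was 0.00064.

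Eya4 showed the same kind of split. Its row of 5292 bases had 2052 counts in dKO and 1896 in WT, a ratio of 1.08 (1.02 to 1.15), and its row of 5345 bases had 41 in dKO and 487 in WT, a ratio of 0.0842 (0.0596 to 0.116). The minor row made up 1.96% of the Eya4 reads in dKO and 20.4% in WT. With the single row that takes the highest mean share of reads, the log2 ratio was 0.04 for Eya1 and 0.10 for Eya4, so both turned their sign. The labels do not say how reads were divided among rows, and whether the rows differ in the cells or in the counting was not tested. In its row of 5160 bases Eya3 had 699 reads in dKO and 1120 in WT, and its other rows had at most 3.

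**Figure D2:**
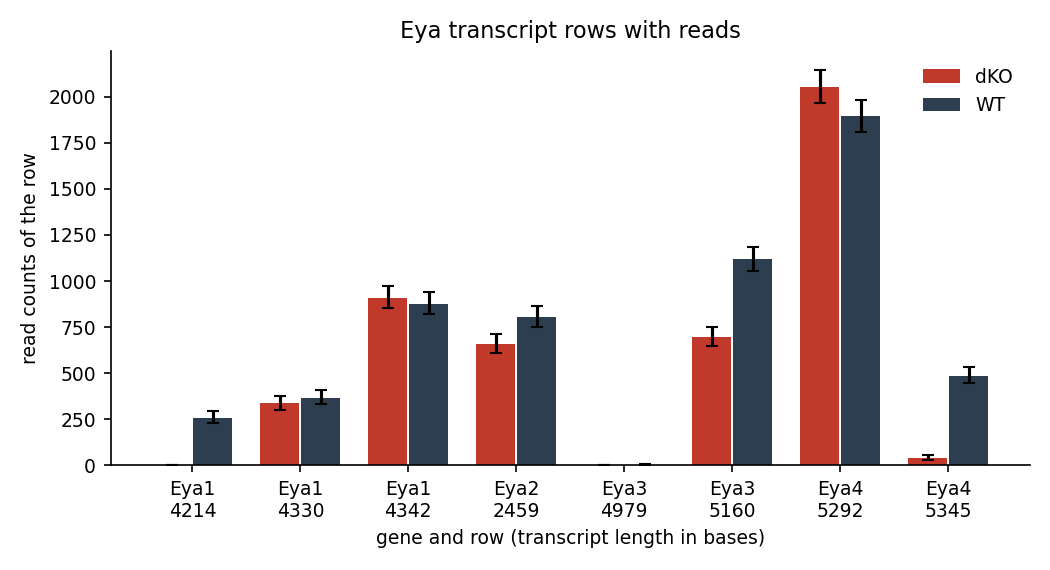
Read counts of each Eya transcript row with reads, named by gene and row length in bases, in dKO and WT (1 library each; error bars are 95% Poisson intervals). The Eya1 row of 4214 bases (0 in dKO, 259 in WT) and the Eya4 row of 5345 bases (41 in dKO, 487 in WT) carry the lower sums of these genes.

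Pitx3 (Entrez ID 18742, chromosome 19, 46135281 to 46148325) had 629 counts in dKO (581 to 680) and 819 in WT (764 to 877). This was 15.7 CPM in dKO and 20.5 CPM in WT, 1.30-fold lower (1.17 to 1.45), with a log2 ratio of −0.36. Pitx3 has 1 row. Its end overlaps that of Elovl3, a fatty acid elongase gene, which had 60 counts in dKO and 27 in WT.

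Per length, the order of the 8 genes was the same in both libraries. In reads per kilobase of transcript per mega-read of scaled library size (RPKM), Pitx3 was highest with 11.4 in dKO and 14.9 in WT, followed by Six2 with 10.2 in dKO and 12.8 in WT and Eya4 with 9.88 in dKO and 11.2 in WT. Eya1, Eya2 and Six5 came next and lay between 5.93 and 7.18 RPKM in dKO and between 7.43 and 8.71 RPKM in WT. Six4 (4.55 RPKM in dKO, 6.13 in WT) and Eya3 (3.38 RPKM in dKO, 5.44 in WT) were lowest. The counting intervals of Pitx3 and Six2, of Six2 and Eya4, of Eya1 and Eya2, and of Eya2 and Six5 overlapped in dKO, so these neighbours in the order are not told apart there. In WT only those of Eya1 and Eya2 and of Eya2 and Six5 did. Eya4, the most abundant gene by reads, had the ratio nearest to 1 (0.878).

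**Figure D3:**
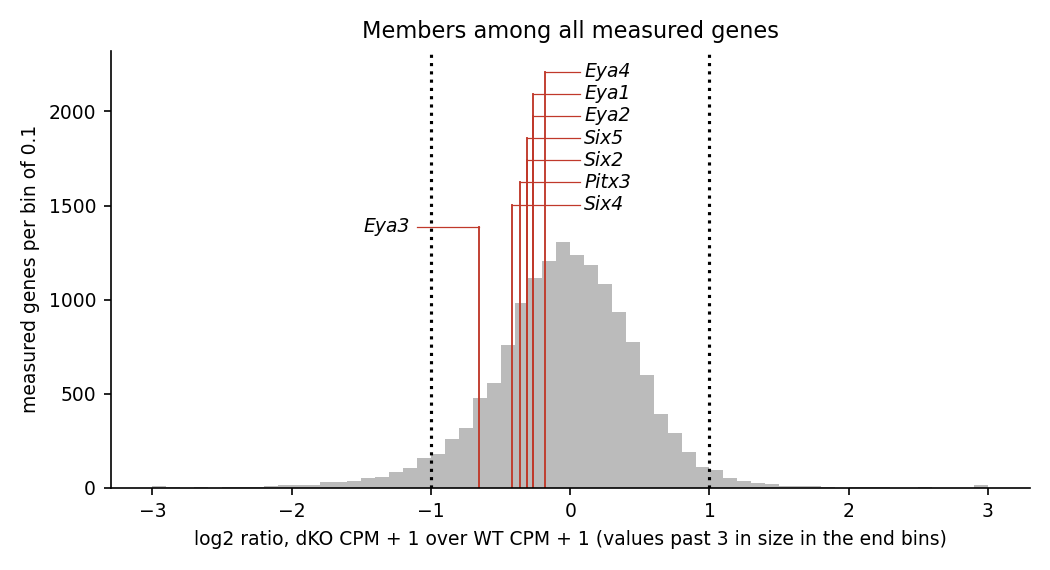
Histogram of the log2 ratio (dKO CPM + 1 over WT CPM + 1) of all 14885 measured genes, with the 8 genes marked by lines and the 2-fold lines dotted. The 8 genes lie between −0.65 and −0.18, left of the median of all measured genes (−0.02) and inside the 2-fold lines.

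The direction for Six2, Six4, Six5, Eya2, Eya3 and Pitx3 was the same under each scaling, pseudocount, minimum count and row choice that gave them a value. With library totals in place of TMM the median of all measured genes was −0.24, a shift of −0.22, and that of the 8 genes was −0.55, so relative to all genes it was −0.31 with totals and −0.29 with TMM. With a trend on abundance and transcript length removed, the 8 genes ran from −0.48 (Eya3) to −0.16 (Eya4), with a median of −0.25.

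**Figure D4:**
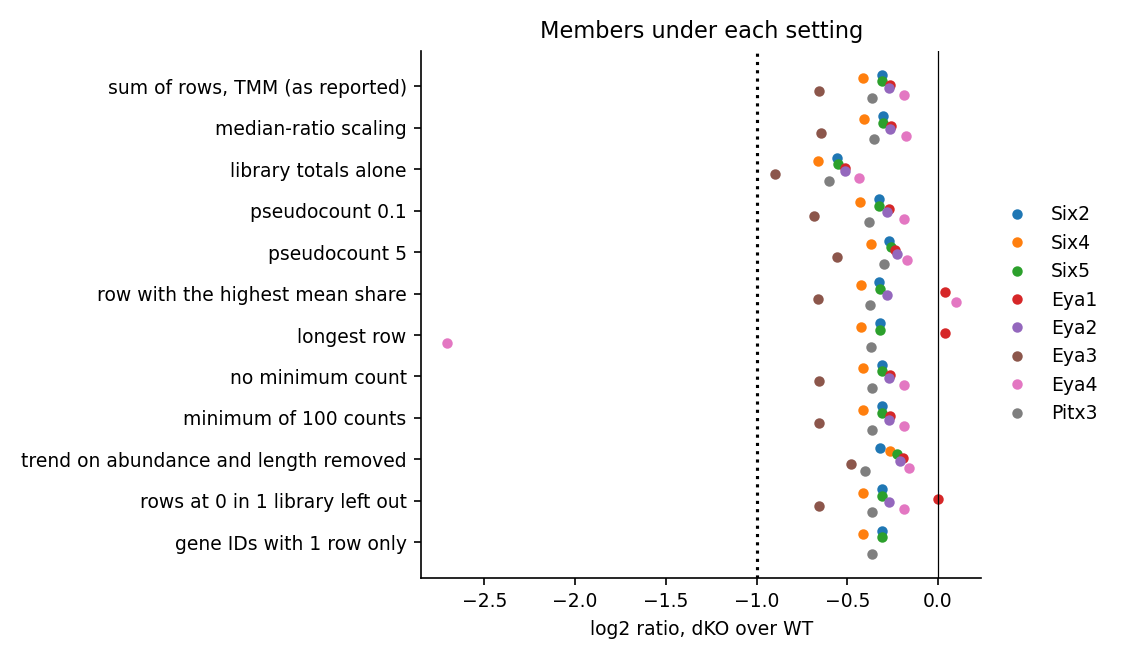
Log2 ratio of each gene (colours) under the reported setting and each alternative, with 0 as a solid and 2-fold lower as a dotted line. Points right of 0 are those of Eya1 and Eya4, and the Eya4 value of −2.71 is that of its longest row alone; genes with no reads in the longest row, or with several rows, are missing where a setting gives no value.

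The other genes of the network were read from lists chosen with earlier results of these data known, and the 2-fold shares of all measured genes given for the 8 genes are their background. Of 12 further genes of the families or known as their partners, 9 were measured, 6 of them below 0, 1 was 2-fold lower and 0 were higher, with a median log2 ratio of −0.05. The median was −0.53 by the longest row, with 3 lower, and 0.10 by the row with the highest mean share, with 1 higher, so no direction of these genes as a group is given. The lower gene was Pitx1, the factor of hindlimb identity, with 12 counts in dKO and 79 in WT and a ratio of 0.152 (0.0753 to 0.280). With the trend removed, at a pseudocount of 5, or at a minimum of 100 counts, which Pitx1 does not reach, 0 of these genes were 2-fold lower. The corepressor gene Tle3 was close in both libraries (316 CPM in dKO, 325 CPM in WT), and Tle5, which encodes a short member of that family, had 172 CPM in dKO and 90.4 CPM in WT.

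Myogenic factors upstream of or beside the network had 11 of 13 members below 0, with a median of −0.15, and 1 was 2-fold higher and 1 lower. The median was −0.35 under library totals, with 3 lower, and −0.30 by the row with the highest mean share, with 2 higher. Myod1, the lineage-determining factor, had 422 CPM in dKO and 135 CPM in WT, 3.13-fold higher (3.03 to 3.23), and Meox1, a homeobox gene of the somite, had 4.10 CPM in dKO and 9.92 CPM in WT, 2.42-fold lower. At a pseudocount of 5, 0 of these factors were 2-fold lower, and at a pseudocount of 0.1, 2 were. Genes known as direct targets of sine oculis factors, alone or with Eya, had 15 of 16 measured, of which 10 were above 0, 3 were 2-fold higher and 0 lower. Gdnf, the gene of glial cell line-derived neurotrophic factor, had 148 CPM in dKO and 32.7 CPM in WT, a ratio of 4.51 (4.25 to 4.80). The other members past 2-fold were Myod1, which is also in the list of myogenic factors, and Myc (ratio 2.05, 2.01 to 2.09). Under library totals, with the trend removed or by the longest row 2 targets were 2-fold higher, and among gene IDs with 1 row 1 was. The target median of 0.12 was −0.14 with library totals and −0.03 after removal of the trend, so no direction of the list as a whole is given.

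Fibre genes were mostly less than 2-fold apart. Of 15 fast fibre genes 10 were below 0, none was 2-fold higher or lower, and the median was −0.19 (−0.40 under library totals). The most abundant were the glycolytic enzyme gene Aldoa (1100 CPM in dKO, 977 CPM in WT) and the fast alpha-actinin gene Actn3 (344 CPM in dKO, 346 CPM in WT). Of 9 slow fibre genes 6 were above 0, with a median of 0.24. That median was 0.07 at a pseudocount of 5, 0.51 at a pseudocount of 0.1 (2 higher and 2 lower), 0.62 at a minimum of 100 counts and 0.02 among gene IDs with 1 row. One of them, the slow troponin T gene Tnnt1, was 2-fold higher, with 29.5 CPM in dKO and 10.7 CPM in WT. Tpm3, a slow tropomyosin gene, had 790 CPM in dKO and 478 CPM in WT, and the calcium pump gene Atp2a2 592 CPM in dKO and 415 CPM in WT.

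Genes linked to Pitx factors had 6 of 10 measured, 4 above 0 and 1 higher by 2-fold, with a median of 0.30 (0.06 under library totals). The higher gene was Mip, a lens water channel gene, with 176 counts in dKO and 53 in WT. The abundant members were the mitochondrial superoxide dismutase gene Sod2 (148 CPM in dKO, 103 CPM in WT) and Aldh1a1, a retinaldehyde dehydrogenase gene (139 CPM in dKO, 99.0 CPM in WT). Among 6 phosphatase and DNA damage partners of Eya proteins none was 2-fold higher or lower, and the median was −0.15. This list includes Esr2, which the dKO genotype removes. At a minimum of 100 counts, which Esr2 (45 counts in dKO, 71 in WT) does not reach, the median became 0.07. Mdc1, a DNA damage adaptor gene, had 62.3 CPM in dKO and 80.8 CPM in WT, and the kinase gene Abl1 145 CPM in dKO and 139 CPM in WT.

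Markers of several other cell types were lower too, and their part in the values of the 8 genes was not tested. Endothelial markers were 2-fold lower for 11 of 12, with a median of −1.53, and their most extreme member was Vwf (25.7 CPM in dKO, 106 CPM in WT). Immune markers were 2-fold lower for 11 of 12, with a median of −1.86, led by the complement gene C1qb (1.55 CPM in dKO, 16.9 CPM in WT). Fibro-adipogenic progenitor markers were 2-fold lower for 7 of 12 (median −1.19, or −0.49 by the longest row; summed 4160 CPM in dKO and 5367 CPM in WT), led by Ly6a, the Sca1 gene (9.65 CPM in dKO, 57.9 CPM in WT).

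Tendon markers were 2-fold lower for 3 of 10 (median −0.69, summed 10203 CPM in dKO and 12189 CPM in WT), namely Thbs4, Col1a2 and Scx. Thbs4 had 817 CPM in dKO and 2112 CPM in WT, and Col1a2 365 CPM in dKO and 768 CPM in WT. Most of each sum thus came from other members. The list also holds Egr1, an early response gene, so the sums are not a measure of tendon RNA alone. Genes of both families are known to be expressed in tendon as well as in muscle. The tendon factor Scx had 7.92 CPM in dKO and 17.4 CPM in WT. Mural markers were 2-fold lower for 3 of 10 (median −0.50), namely Myh11, Cnn1 and Kcnj8, and myofibre markers for 0 of 10 (median −0.32). Glial markers had 0 of 10 apart and a median of 0.06 (−0.18 under library totals), and muscle stem cell markers 0 of 12 and a median of −0.05 (−0.30 under library totals, −0.42 with the trend removed). None of the markers in these lists was at 0 in either library. The most abundant stem cell marker, the syndecan gene Sdc4, had 4872 CPM in dKO and 2980 CPM in WT, and the receptor gene Fgfr4 977 CPM in dKO and 1017 CPM in WT.

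**Figure D5:**
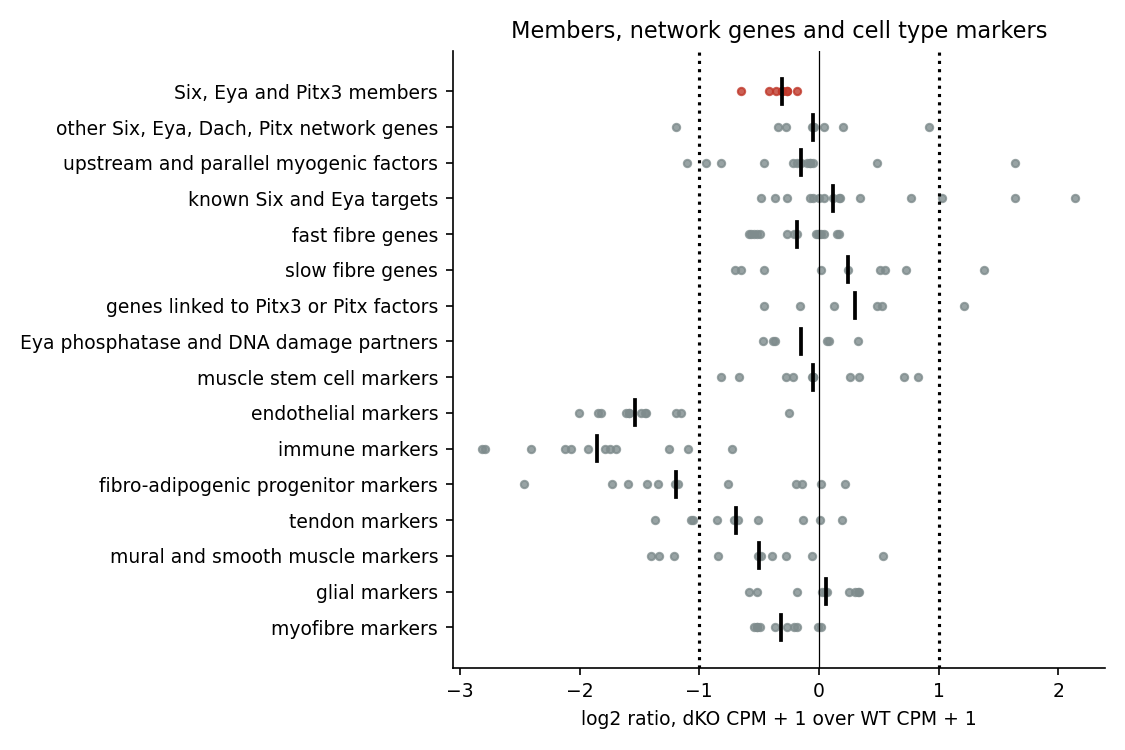
Log2 ratio (dKO CPM + 1 over WT CPM + 1) of each measured gene of a list (points) with the list median (bar) and the 2-fold lines dotted. The 8 genes (red) lie between −0.65 and −0.18, endothelial and immune markers lie furthest left (medians −1.53 and −1.86), and Gdnf is the rightmost point of the known targets.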

How the data were processed

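Whole-number read counts of 2 libraries were deposited by the authors, 1 line per transcript with its length and an Entrez gene ID, per the file headers. The submitters' processing notes name mm10, TopHat2 2.0.9, bedtools and edgeR without saying how each was used. The counting rule, annotation and strand: not given in the sources used here. The 36780 rows, each with a gene ID, were summed to 24532 gene IDs, of which 24462 matched a RefSeq symbol on GRCm38.p6, and 6494 had several rows. Libraries were scaled by TMM in edgeR 4.0.16 (R 4.3.3), with factors of 0.916 for dKO and 1.09 for WT. Median-ratio scaling used DESeq2 1.42.0. A gene at 0 was set against a floor of 3 counts. Steps were tested on simulated data.

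The 8 genes, the lists, the 2-fold rule and the alternatives were chosen with earlier results of these data known. All 8 genes are named by their values. In each list, of the measured genes 2-fold higher or lower, the 4 with the most extreme log2 ratio could be named; where there were fewer than 2, the 2 most abundant of the list were added. Pax7, Vcam1 and Esr2 are named for the sort and the genotype. The other deleted gene is not reported here.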

Additional observations from a re-analysis of the deposited data

How the results depend on the processing

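No paired analysis was possible because each group has 1 library, and no library could be left out. Of the 8 genes, 0 were 2-fold higher under each alternative, and 0 were 2-fold lower except 1 (Eya4, log2 ratio −2.71) by the longest row. With a 1.5-fold rule 1 (Eya3) was past it, in the lower direction. Log2 ratios below 0 were 5 of the 6 genes that have reads in the longest row, 4 of the 4 genes with 1 row, 6 of 8 by the row with the highest mean share and 7 of 8 with rows at 0 in 1 library and at least 100 counts in the other left out. The rules of 1 row only and of rows left out were chosen after seeing the data. The median of the 8 genes was −0.55 under library totals and between −0.34 and −0.25 under the others.

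Over all measured genes, 286 were 2-fold higher and 640 lower in dKO. They were 130 and 1040 under library totals (median −0.24), 698 and 1653 at a pseudocount of 0.1, 154 and 187 at a pseudocount of 5 (median −0.014), and 307 and 426 with the trend removed (median 0.0060). By the row with the highest mean share 455 were higher and 897 lower, by the longest row 629 and 958, and among gene IDs with 1 row 187 and 384. With a 1.5-fold rule 1336 were higher and 1955 lower, and with a 4-fold rule 25 and 56. At a minimum of 100 counts the median was 0.0026. The cause of these differences was not tested, beyond the smaller number of genes with 1 row only or at least 100 counts. Of the 8 ratios, that of Eya2 had the widest counting interval, 0.739 to 0.911.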

Other observations

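Rows at 0 in 1 library were not particular to Eya1. Among rows with 100 or more counts in either library, 725 of 8670 rows of gene IDs with several rows (8.36%) were at 0 in the other library, against 9 of 7512 rows of gene IDs with 1 row (0.120%). Of the 725, 478 were at 0 in dKO and 247 at 0 in WT. Among 2873 gene IDs with 2 or more rows of at least 100 counts, 65.8% had rows of opposite sign, as Eya1 and Eya4 did, and 30.0% had 1 row 2-fold lower in dKO beside another that was not below 0.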
